A study of Mus musculus with 18 samples.

Results

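The genes described here are 51 members of central carbon metabolism: the enzymes of glycolysis and lactate formation, of the pentose phosphate pathway, of pyruvate entry and the tricarboxylic acid (TCA) cycle, and Acod1, the enzyme that makes itaconate. They were chosen by name, with earlier results of these data known. Of the 51 members, 48 had a value and 47 were tested, among 13598 genes with a value and 9707 genes tested. RNA-seq was measured in 18 libraries of macrophages that thioglycolate had drawn into the mouse peritoneal cavity. They came from TLR4-WT mice and from mice in which a lysine of TLR4, the receptor for lipopolysaccharide (LPS), is replaced by arginine at the position that the names TLR4-K730R and TLR4-K810R give. All mice were on the C57BL/6 background, and the mutations were made by CRISPR/Cas9 in embryonic stem cells, whose chimeric mice were then bred with C57BL/6 mice. Whether the mutant mice carried 1 or both mutated copies is not given in the sources used here. Macrophages of each genotype received mock treatment or LPS at 100 ng/ml for 6 h, which gives 6 groups of 3 libraries. The labels do not say whether the 3 libraries of a group came from separate animals, so the p-values measure the spread between these libraries only, which may be technical. Age, sex and pooling of animals are not given in the sources used here.

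Glycolysis turns glucose into pyruvate in the cytosol, and the pentose phosphate pathway branches from its start to supply NADPH and ribose. Pyruvate becomes lactate through lactate dehydrogenase or enters mitochondria through the pyruvate dehydrogenase complex, after which the TCA cycle oxidises it by way of citrate, isocitrate, oxoglutarate, succinate, fumarate and malate. Macrophages that meet LPS are known for high glycolysis, for a TCA cycle that is interrupted at isocitrate and at succinate dehydrogenase, and for making itaconate from the cycle intermediate cis-aconitate.

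The deposited FPKM values (fragments scaled to transcript length and to the fragments of the library) belong to transcript events such as first and last exons, not to whole genes. Each gene was therefore given, per library, the sum of its first-exon FPKM or that of its last-exon FPKM, whichever was larger. FPKM is per length, so levels can be set side by side between genes, but a gene whose end exons are listed in part gets a partial value. For 30 of the 48 members both ends were listed with means within 1.1 times of each other. For the other 18 they differed more, or only 1 end was listed. The means of the 2 ends differed by 184 times for Pfkfb3, 81.3 times for Mdh1 and 48.8 times for Ldha, and Hk2, Gpi1, Pdk3, Sdha and Aldoa were listed at 1 end only. Pkm, Pgls and Tkt have no rows in the files used here and are not analysed here. No read counts are given, so the depth is unknown. Differences and fold changes of tests are on the log2(FPKM + 1) scale, where changes of genes with low FPKM come out too small, and a gene is called at an adjusted p below 0.01.

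The LPS label was checked by known targets, whose log2 difference in TLR4-WT was 8.85 for Il1b, 8.06 for Nos2 and 3.96 for Tnf, all called higher. The level of Tlr4 itself cannot check a point mutation. Summed macrophage markers (5 of 6 had a value) lay between 11587 and 14738 FPKM in mock-treated and between 6877 and 9811 FPKM in LPS-treated libraries, most of it Lyz2. Cd68 was at 614 to 771 FPKM without and 387 to 402 FPKM with LPS in TLR4-WT, at 619 to 752 and 396 to 474 FPKM in TLR4-K730R, and at 528 to 699 and 455 to 579 FPKM in TLR4-K810R, where the groups overlapped. Csf1r likewise was lower with LPS in TLR4-WT (479.6 to 538 and then 315 to 385 FPKM) and TLR4-K730R (451 to 536 and then 277 to 422 FPKM) and overlapped in TLR4-K810R (359.7 to 415 and then 364 to 389.6 FPKM). Mertk was lower with LPS in all 3 genotypes. Adgre1 overlapped in TLR4-WT and TLR4-K730R and was higher with LPS in TLR4-K810R (148 to 192 and then 229.9 to 271 FPKM). The part of these markers in the results was not tested. In bulk RNA, fewer cells of a type and less RNA per cell cannot be told apart. The 5 neutrophil markers summed to 61.1 to 83.3 FPKM without and 204 to 281 FPKM with LPS. Nearly all of this was S100a8 and Csf3r, and Ly6g did not pass 0.644 FPKM in any group. Mesothelial markers (5) summed to 10.8 to 29.6 FPKM in mock-treated TLR4-K810R against 2.07 to 3.55 FPKM in mock-treated TLR4-WT and at most 8.68 FPKM in each other group, and intestinal markers (6) to 6.56 to 48.7 FPKM in the mock-treated mutants against 0.118 to 0.594 FPKM in TLR4-WT without LPS. With LPS the intestinal markers summed to at most 7.17 FPKM in TLR4-WT, 7.56 to 11.3 FPKM in TLR4-K730R and at most 4.74 FPKM in TLR4-K810R. The part of both lists was not tested either. Lung markers (5) reached 34.7 FPKM in a TLR4-K810R library with LPS, beside no more than 3.94 FPKM elsewhere. B cell, T cell, mast cell, eosinophil and erythroid markers stayed at or below 5.21 FPKM in sum. One LPS-treated library in each of 2 groups stood apart from its label. Replicate 3 of TLR4-WT correlated across genes with r of 0.970 with replicates 1 and 2 of TLR4-K730R but 0.966 and 0.962 with those of its own group, and replicate 3 of TLR4-K730R with r of 0.969 and 0.974 with replicates 1 and 2 of TLR4-WT but 0.966 and 0.963 with its own. These correlations run across genes, which are no independent replicates. An exchange of the labels of these 2 libraries is possible and was not tested, and it would change the LPS means of both groups. The libraries were used as labelled. The counts of calls, the response of Acod1 and the comparisons between genotypes are given with and without them.

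LPS raised 4 members and lowered most of those that changed. In TLR4-WT, 25 of 47 members were called, of which 4 rose and 21 fell with LPS. Among all tested genes 10.4% were called higher and 23.9% lower, or 34.3% in either direction. The 8.51% of members that rose thus lies near the background and the 44.7% that fell lies above it. Both are descriptions, because the members were chosen with earlier results of these data known. In TLR4-K730R the calls were 4 higher and 23 lower (48.9% of members), beside 9.32% and 26.5% of all genes. In TLR4-K810R they were 4 higher and 17 lower (36.2% of members), beside 9.08% and 19.7% of all genes. The same 4 genes, Acod1, Pfkfb3, Hk2 and Pgk1, rose in each genotype, and 14 members fell in each. The median log2 difference of the members was -0.44, -0.54 and -0.37 in TLR4-WT, TLR4-K730R and TLR4-K810R, and that of all tested genes was -0.28, -0.36 and -0.26. Median-of-ratios scaling brings the median over all genes to -0.01, -0.04 and -0.03. Under it the members called were 6 higher and 16 lower for TLR4-WT, 6 and 10 for TLR4-K730R and 5 and 8 for TLR4-K810R, so the number of falls depends on the scaling. Of the 9645 genes tested under this scaling, 15.5%, 15.5% and 12.4% were called higher and 14.2%, 13.5% and 11.7% lower, in the same order. The members that fell were 34.0%, 21.3% and 17.0%, and those that rose were 12.8%, 12.8% and 10.6%, below the share of all genes. All 4 rises and 8 of the falls (Aldoc, Idh1, Idh2, Idh3g, Ldhb, Mdh1, Pdk1 and Suclg2) were called in all 3 genotypes under both scalings. Without replicate 3 of both LPS groups that stood apart, 29 members were called in TLR4-WT and 27 in TLR4-K730R, in either direction. The share of all genes called in that fit is not given here.

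**Figure D1:**
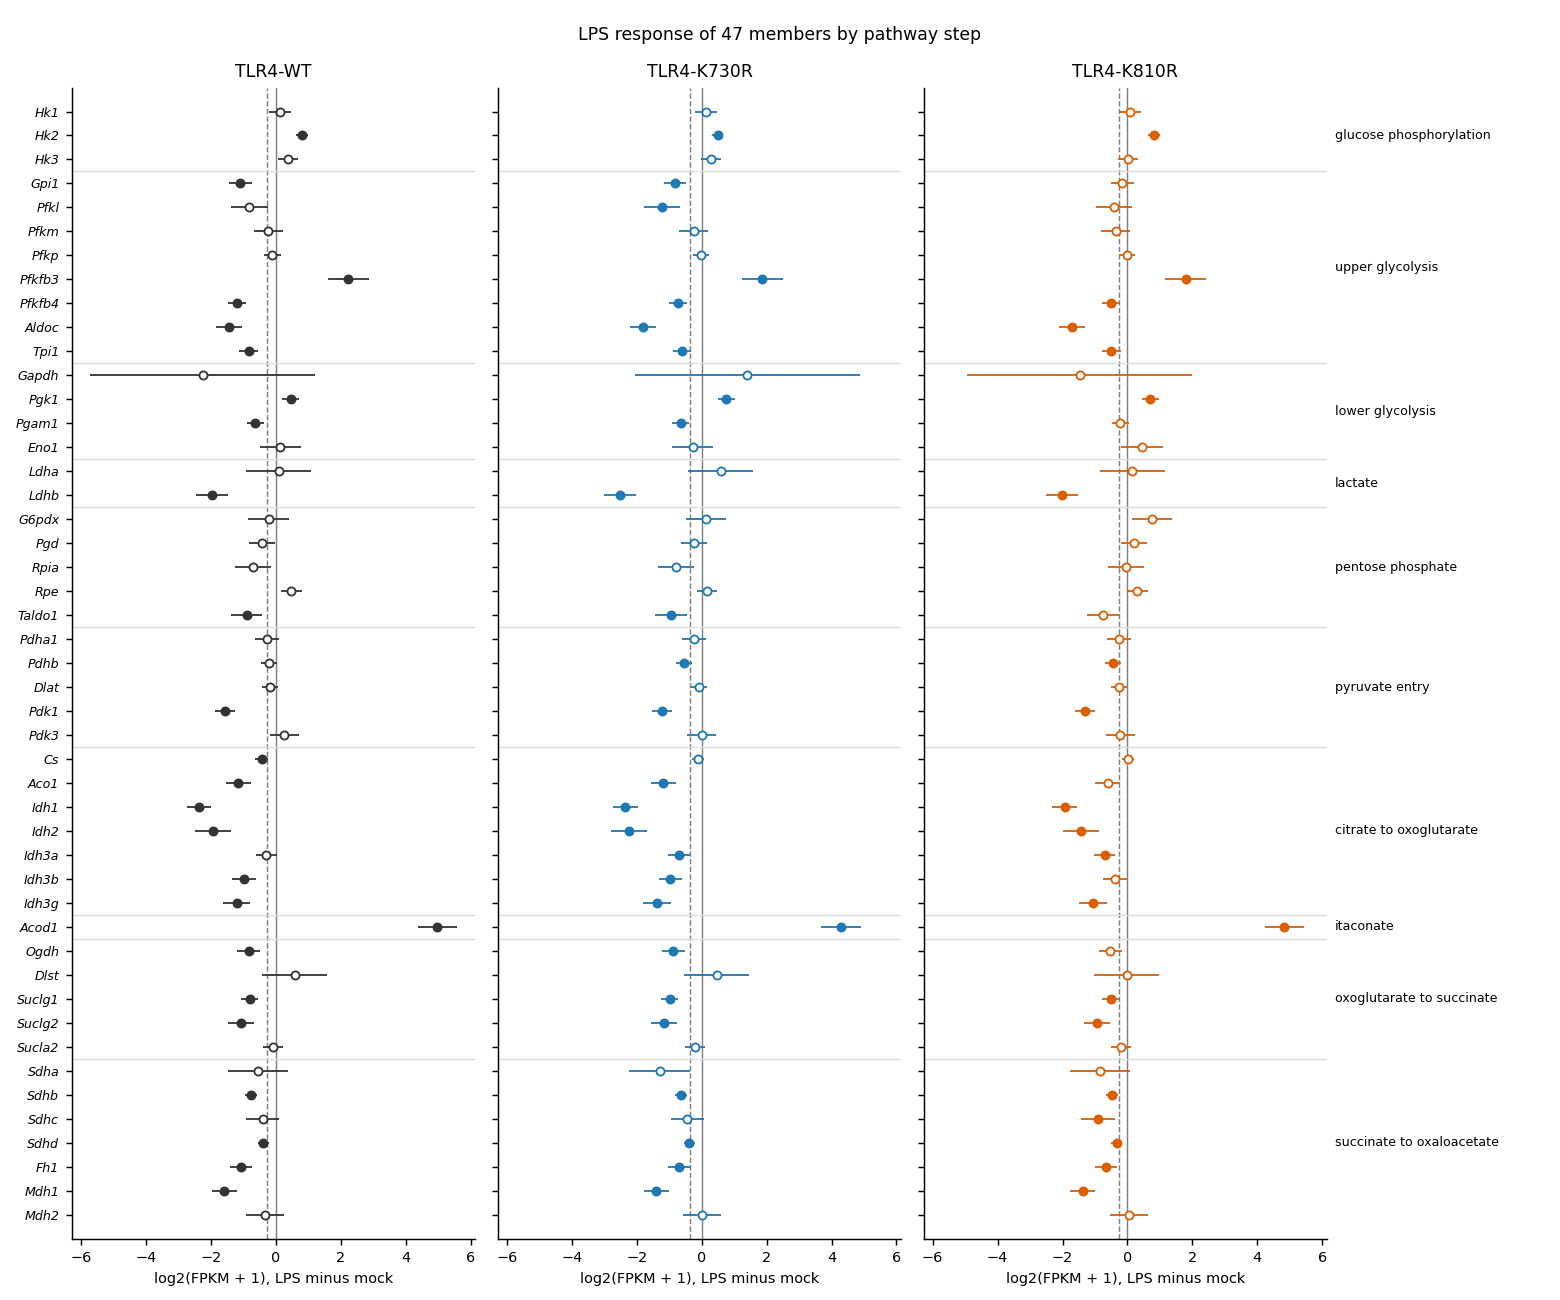
Log2(FPKM + 1) difference between LPS-treated and mock-treated macrophages for the 47 tested members, 1 panel per genotype, in the order of the pathway steps named at the right. Points are estimates, bars 95% confidence intervals, filled points are called at an adjusted p below 0.01, and the dashed line is the median over all 9707 tested genes. Acod1, at 4.98, 4.29 and 4.83, lies farthest to the right, and Idh1, Idh2 and Ldhb lie among those farthest to the left.

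Acod1 (chromosome 14, 103046977 to 103056573 of GRCm38), the enzyme that decarboxylates cis-aconitate to itaconate, exceeded every other member in every LPS-treated library. In mock-treated TLR4-WT it was at 34.5, 61.2 and 55 FPKM, and with LPS at 1929, 2020.0 and 988 FPKM. In TLR4-K730R it went from 65.4, 67.0 and 64.9 FPKM to 1054, 1004 and 2094 FPKM. TLR4-K810R had 31.6, 27.9 and 32.1 FPKM without LPS and 887, 895 and 907 FPKM with it. No LPS library came near a mock library, and replicate 3 was the low library of LPS-treated TLR4-WT and the high one of TLR4-K730R. The log2 difference was 4.98 ± 0.29 (SE, n = 3 against 3, adjusted p = 1.2e-09) in TLR4-WT, and 4.29 ± 0.29 and 4.83 ± 0.29 in TLR4-K730R and TLR4-K810R. Without replicate 3 of the LPS group it was 5.31 in TLR4-WT and 3.95 in TLR4-K730R, called in both. As a ratio of mean FPKM this is 32.8, 21.0 and 29.3 times.

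Hexokinase, which traps glucose in the cell as glucose 6-phosphate, was present as 3 isozymes, and LPS raised the one that was least abundant in mock-treated cells. Hk2, the inducible isozyme, was at 17.6, 17.1 and 17.9 FPKM in mock-treated TLR4-WT and at 31.2, 29.6 and 32.7 FPKM with LPS. In TLR4-K730R it was at 23.4, 20.7 and 21.3 FPKM and then at 29.6, 32.0 and 31.5 FPKM, and in TLR4-K810R at 17.3, 18.2 and 18.5 FPKM and then at 33.5, 32.5 and 31.3 FPKM. The groups with and without LPS did not overlap in any genotype. The log2 difference was 0.80 ± 0.08 (adjusted p = 1.3e-06) in TLR4-WT, and 0.49 ± 0.08 and 0.81 ± 0.08 in TLR4-K730R and TLR4-K810R, all called. Hk3, the isozyme typical of myeloid cells, carried most of the hexokinase FPKM, from 77.9% to 84.3% in every library. It was at 222, 186 and 226 FPKM in mock-treated and 274, 306 and 240.5 FPKM in LPS-treated TLR4-WT, at 202, 178 and 198 and then 196, 221 and 296 FPKM in TLR4-K730R, and at 209.6, 207 and 231 and then 222, 235 and 198 FPKM in TLR4-K810R. It was not called in any genotype (log2 difference 0.37 in TLR4-WT, adjusted p = 0.044), but was called higher in TLR4-WT and TLR4-K730R under median-of-ratios scaling. Hk1, the widely expressed isozyme, ranged from 21.0 to 34.1 FPKM over all libraries and was not called.

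The bifunctional PFKFB enzymes set the level of fructose 2,6-bisphosphate, the main activator of phosphofructokinase, and the 2 members changed in opposite directions. Pfkfb3, whose product favours synthesis of the activator, was at 23.8, 24.2 and 10.8 FPKM in mock-treated TLR4-WT and at 91.4, 131 and 61.4 FPKM with LPS. It went from 22.1, 22.0 and 20.5 to 73.8, 74.1 and 98.1 FPKM in TLR4-K730R and from 12.6, 14.9 and 21.7 to 51.4, 51 and 73.5 FPKM in TLR4-K810R. All LPS libraries lay above all mock libraries, with log2 differences of 2.23 ± 0.30 (adjusted p = 1.6e-05), 1.87 ± 0.30 and 1.79 ± 0.30. Pfkfb4 was at 24.5, 24.0 and 26.9 FPKM in mock-treated TLR4-WT and at 8.07, 10.9 and 12.6 FPKM with LPS. In TLR4-K730R its levels were 21.3, 21.8 and 21.1 and then 13.5, 13.1 and 11.3 FPKM, and in TLR4-K810R 21.5, 22.1 and 18.9 and then 13.5, 14.5 and 15.2 FPKM. It fell in each genotype without overlap, by 1.199 ± 0.13 on the log2 scale in TLR4-WT (adjusted p = 1.7e-06), by 0.72 ± 0.13 in TLR4-K730R and by 0.50 ± 0.13 in TLR4-K810R. Both mutant calls were lost under median-of-ratios scaling, and that in TLR4-K810R also without any 1 of the libraries compared other than mock replicate 3 (-0.57 to -0.46). Pfkfb3 was 28.6% to 50.2% of the PFKFB FPKM in mock-treated TLR4-WT and 82.9% to 92.3% with LPS. The isozyme plot shows this exchange beside the hexokinases, where the Hk2 share was 6.62% to 7.57% without and 8.12% to 10.9% with LPS in TLR4-WT, 8.79% to 9.29% and 8.71% to 12.01% in TLR4-K730R, with overlap, and 6.71% to 7.38% and 11.2% to 12.3% in TLR4-K810R.

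**Figure D2:**
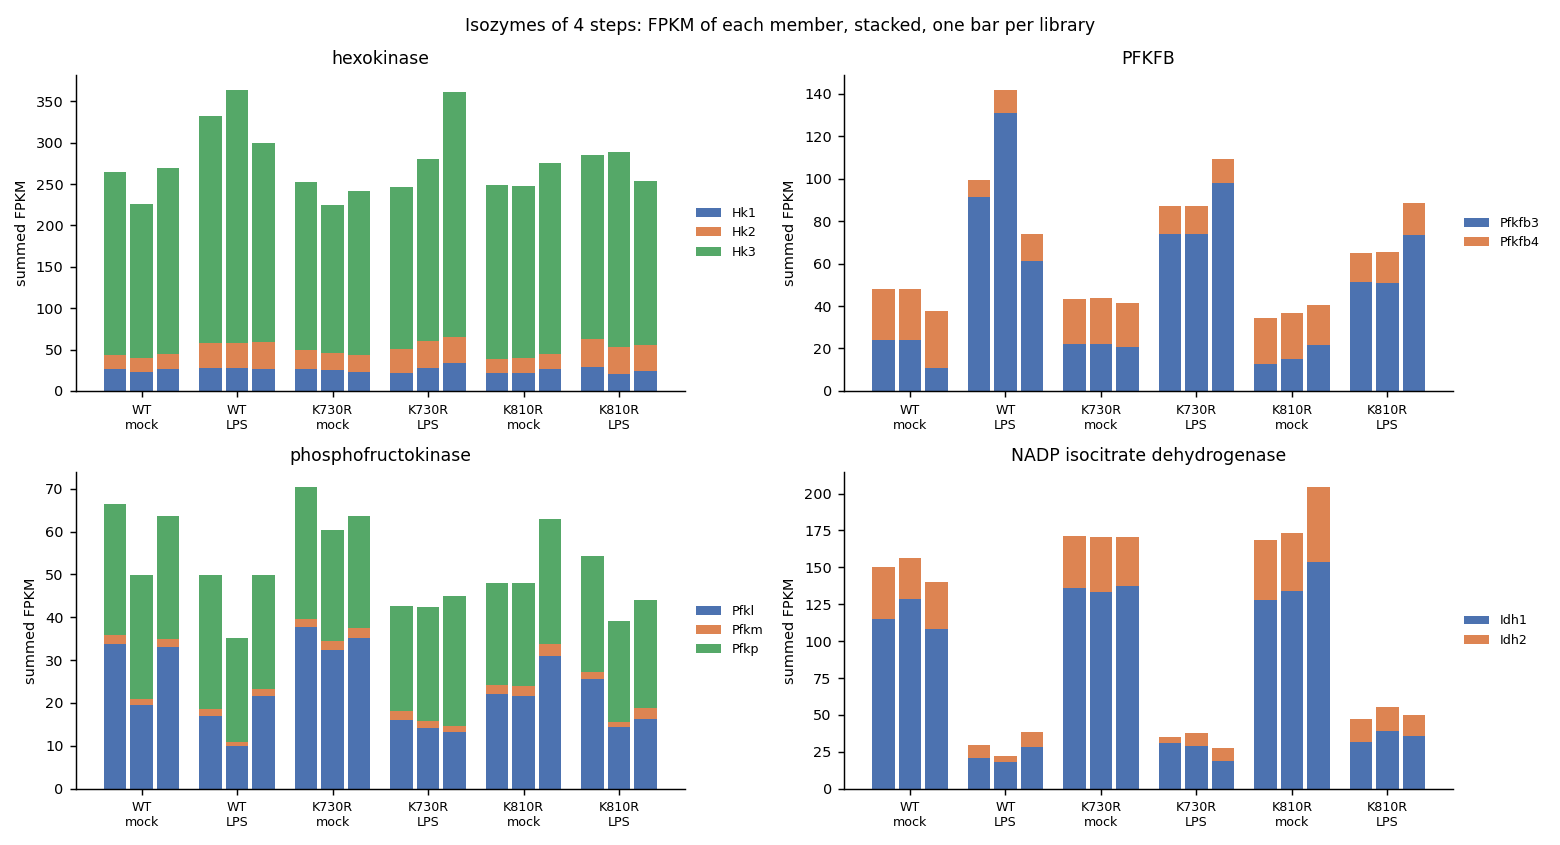
Summed FPKM of the isozymes of 4 steps, 1 stacked bar per library, with the 6 groups of 3 libraries along the horizontal axis. Hk3 fills most of each hexokinase bar, Pfkfb3 takes over the PFKFB bars with LPS, and the sum of Idh1 and Idh2 drops from 140 to 156 FPKM to 22.1 to 38.3 FPKM in TLR4-WT.

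Pgk1, which makes the first ATP of lower glycolysis, completes the members that rose. Its levels were 202, 214 and 194 FPKM in mock-treated TLR4-WT and 267, 254 and 321 FPKM with LPS. TLR4-K730R had 175, 178 and 194 FPKM and then 329, 347 and 259 FPKM, and TLR4-K810R had 181, 205 and 172 FPKM and then 312, 312 and 287 FPKM. The groups did not overlap, and the log2 differences were 0.46 ± 0.12 (adjusted p = 0.0056), 0.76 ± 0.12 and 0.71 ± 0.12. The call in TLR4-WT was lost without replicate 1 or 3 of either of its groups, where the difference was at least 0.36.

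The 4 members that rose are shown with their promoters, 250 bases before to 50 bases after the RefSeq start (GRCm38.p6), on the strand of the gene and from 5′ to 3′. The start of each lies within 100 bases of the first exon that carries most of its FPKM. Capitals mark ACGTG, the core of hypoxia response elements, and a loose form of the NF-kB motif (GGG, any 5 bases, CC), each on either strand. The promoters are those of Acod1 (chr14:103046762-103047061, plus strand), Pfkfb3 (chr2:11502041-11502340, minus strand), Hk2 (chr6:82774405-82774704, minus strand) and Pgk1 (chrX:106186850-106187149, plus strand).
Acod1: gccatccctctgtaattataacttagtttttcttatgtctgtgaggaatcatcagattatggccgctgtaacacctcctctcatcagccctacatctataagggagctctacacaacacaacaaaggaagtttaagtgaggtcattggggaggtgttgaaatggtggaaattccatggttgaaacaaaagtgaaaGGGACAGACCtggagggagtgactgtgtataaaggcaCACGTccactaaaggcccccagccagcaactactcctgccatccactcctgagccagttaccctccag
Pfkfb3: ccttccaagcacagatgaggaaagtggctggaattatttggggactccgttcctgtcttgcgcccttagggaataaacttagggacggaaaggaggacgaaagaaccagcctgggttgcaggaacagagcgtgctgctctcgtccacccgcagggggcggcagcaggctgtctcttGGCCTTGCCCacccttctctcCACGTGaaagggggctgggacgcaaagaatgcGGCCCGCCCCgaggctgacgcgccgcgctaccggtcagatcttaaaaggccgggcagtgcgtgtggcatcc
Hk2: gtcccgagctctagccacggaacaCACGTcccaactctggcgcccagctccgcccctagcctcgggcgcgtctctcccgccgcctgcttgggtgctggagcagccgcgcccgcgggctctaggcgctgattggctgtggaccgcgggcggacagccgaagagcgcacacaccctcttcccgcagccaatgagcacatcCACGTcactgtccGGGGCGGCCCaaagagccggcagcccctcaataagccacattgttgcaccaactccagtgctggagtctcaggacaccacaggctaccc
Pgk1: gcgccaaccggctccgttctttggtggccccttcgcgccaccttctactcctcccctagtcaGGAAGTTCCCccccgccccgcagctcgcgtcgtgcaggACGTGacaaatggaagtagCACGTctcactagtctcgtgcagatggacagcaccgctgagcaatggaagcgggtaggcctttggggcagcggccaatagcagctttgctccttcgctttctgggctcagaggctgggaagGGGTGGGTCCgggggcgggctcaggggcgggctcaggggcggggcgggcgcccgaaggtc
ACGTG was found on either strand in all 4, with 1 match in Acod1 and 2 in each of the others, and the CACGTG of Pfkfb3 counts on both strands. The NF-kB motif was found once in Acod1 and Hk2 and 2 times in Pfkfb3 and Pgk1. Of the 34 members whose RefSeq start lies within 100 bases of their main first exon, 13 (38.2%) hold ACGTG, beside 19.6% of all 32851 promoters of the table. Among the 16 of these members that fell in TLR4-WT, 3 hold it, and among the 14 that were not called, 6 do. The NF-kB motif is found in 24 of the 34 (70.6%) beside 50.8% of all promoters, and the interferon-stimulated response element (GAAA, any 2 bases, GAAA) in 2 (5.88%) beside 3.44%. A match is a description of these letters and no binding site.

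**Figure D3:**
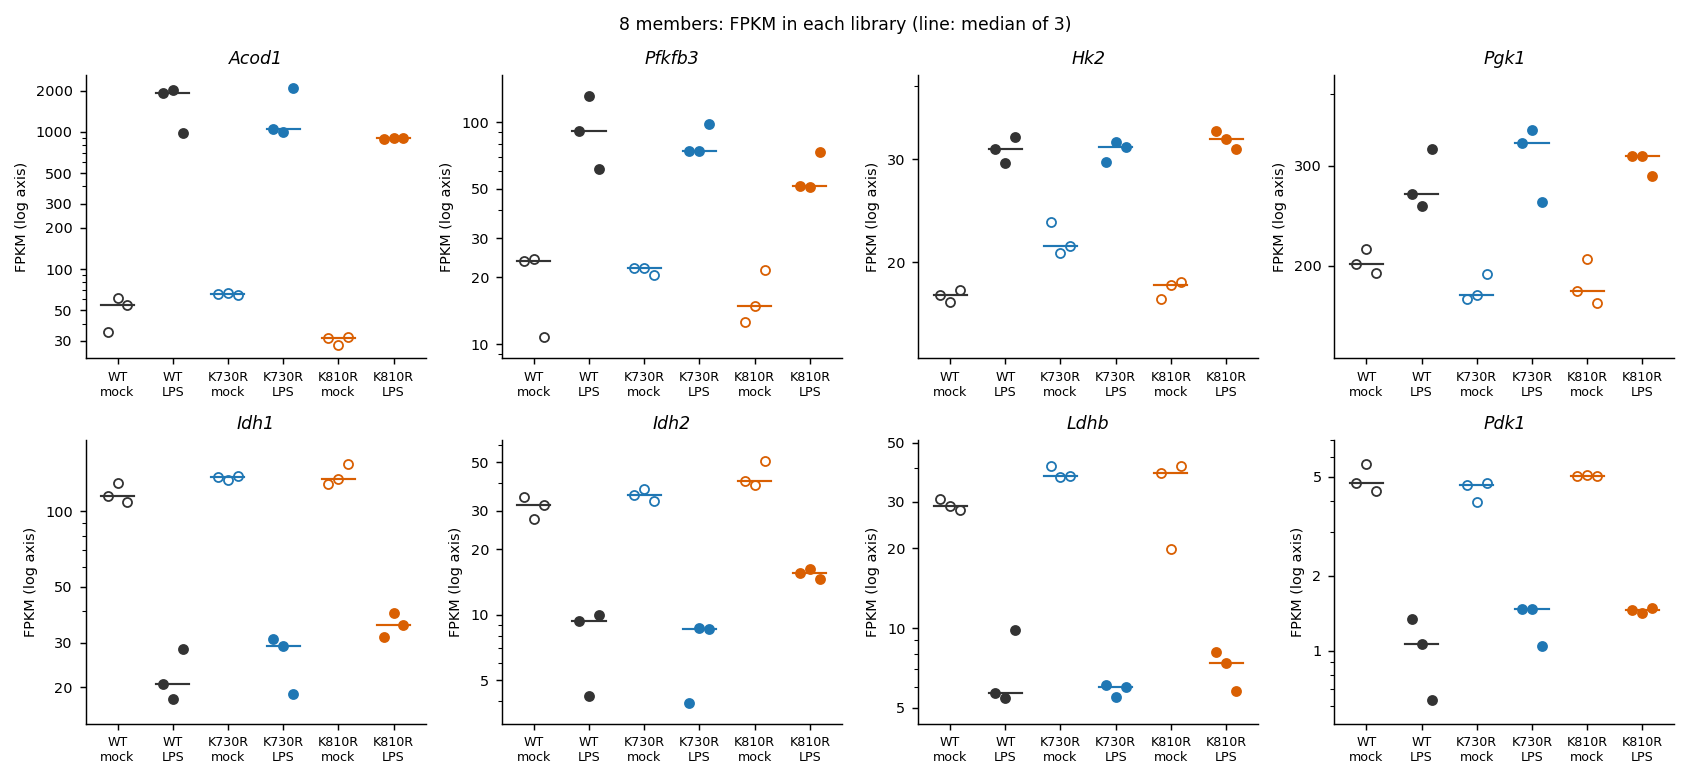
FPKM in each library on a log axis for 8 members, with the 6 groups along the horizontal axis, open points for mock-treated and filled points for LPS-treated libraries and a line at the median of 3. Acod1, Pfkfb3, Hk2 and Pgk1 lie higher and Idh1, Idh2, Ldhb and Pdk1 lower with LPS, without overlap within a genotype. The third point of LPS-treated TLR4-WT and that of TLR4-K730R lie on the other side of their group mates for Acod1 (988 and 2094 FPKM).

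The rest of upper glycolysis was lower or not called after LPS. Gpi1, which interconverts glucose 6-phosphate and fructose 6-phosphate, was at 149.8, 158 and 156 FPKM in mock-treated TLR4-WT and at 59.4, 72.8 and 86.1 FPKM with LPS, a log2 difference of -1.09 ± 0.16 (adjusted p = 4.5e-05). In TLR4-K730R it went from 186, 176 and 159.8 FPKM to 92.5, 129.8 and 78.7 FPKM (-0.82 ± 0.16, called, but not under median-of-ratios scaling). In TLR4-K810R its 148, 145 and 163 FPKM without LPS stood beside 145, 145 and 120.3 FPKM with it, groups that touch (-0.16, adjusted p = 0.47). Tpi1, the triose phosphate isomerase, fell in all 3 genotypes, by 0.84, 0.60 and 0.49 on the log2 scale. The falls in both mutants were not called under median-of-ratios scaling, that in TLR4-K810R was lost without any 1 library other than mock replicate 1 (-0.58 to -0.44), and that in TLR4-K730R without mock replicate 1 (-0.70 to -0.48 over the libraries left out). Of the phosphofructokinases, Pfkp was the most abundant on average and was not called in any genotype: 30.5, 29.0 and 28.7 FPKM and then 31.2, 24.4 and 26.6 FPKM in TLR4-WT, 30.6, 26.0 and 26.1 and then 24.5, 26.6 and 30.5 FPKM in TLR4-K730R, and 23.7, 24.1 and 29.0 and then 27.1, 23.5 and 25.3 FPKM in TLR4-K810R. The 95% interval of its log2 difference was -0.36 to 0.15 in TLR4-WT, and -0.28 to 0.24 and -0.27 to 0.24 in the mutants. Median-of-ratios scaling gave 0.22, 0.38 and 0.25, not called. Pfkl was called lower in TLR4-K730R alone (-1.22, not under median-of-ratios scaling), with -0.82 in TLR4-WT and -0.41 in TLR4-K810R, and the differences between these responses were not called. Pfkm stayed between 0.896 and 2.81 FPKM.

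Aldolase splits fructose 1,6-bisphosphate, and its 2 members cannot be compared in the same way. Aldoc fell from 4.11, 3.4 and 2.93 FPKM to 0.562, 0.925 and 0.464 FPKM in TLR4-WT, from 3.25, 5.30 and 2.94 to 0.538, 0.120 and 0.417 FPKM in TLR4-K730R and from 4.65, 3.49 and 4.02 to 0.574, 0.504 and 0.532 FPKM in TLR4-K810R. Every LPS library was below 1 FPKM and no mock library was below 2.93 FPKM, with log2 differences of -1.44, -1.81 and -1.71. Aldoa has 2 Ensembl numbers in GRCm38, and its events carry one number but lie within the span of the other, so the filter on position left at most 0.804 FPKM and no test. Without that filter Aldoa was at 213 to 511 FPKM over the 18 libraries. It was then not called in TLR4-WT (-0.43, adjusted p = 0.12), TLR4-K730R (0.49, adjusted p = 0.075) or TLR4-K810R (-0.47, adjusted p = 0.10).

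Lower glycolysis holds the least certain values. Gapdh was at 0.950, 144 and 62.1 FPKM in mock-treated and 0.611, 23.9 and 3.18 FPKM in LPS-treated TLR4-WT. It was at 0.369, 16.2 and 50.4 and then 28.2, 11.6 and 59.4 FPKM in TLR4-K730R, and at 117, 46.2 and 11.5 and then 33.4, 1.66 and 34.8 FPKM in TLR4-K810R. Within a group the highest library was 5.12 to 152 times the lowest, and its main first exon ran from 0.369 to 46.2 FPKM over the 18 libraries. In TLR4-WT its log2 difference of -2.25 had a 95% interval from -5.72 to 1.22, and no direction can be read from it. Pgam1, the phosphoglycerate mutase, fell in TLR4-WT (-0.64) and TLR4-K730R (-0.65) and was at -0.22 in TLR4-K810R, not called. Neither fall was called under median-of-ratios scaling. Eno1, the enolase, had 283 to 819 FPKM and was not called.

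Lactate dehydrogenase is a tetramer of A and B subunits, of which the A form favours lactate formation. Ldhb was at 30.8, 28.8 and 28.0 FPKM in mock-treated TLR4-WT and at 5.67, 5.45 and 9.84 FPKM with LPS. In TLR4-K730R it went from 41.0, 37.2 and 37.6 to 6.10, 5.51 and 5.99 FPKM and in TLR4-K810R from 38.5, 19.8 and 41.0 to 8.13, 7.38 and 5.80 FPKM. There was no overlap, and it fell by 1.96 ± 0.23 on the log2 scale (adjusted p = 4.3e-06), by 2.53 ± 0.23 and by 2.02 ± 0.23. Ldha was at 135, 341 and 412 FPKM and then 383, 158 and 378 FPKM in TLR4-WT, at 358, 97.8 and 324 and then 297, 335 and 387 FPKM in TLR4-K730R, and at 273, 441 and 356 and then 439.7, 362 and 366 FPKM in TLR4-K810R. In the 3 low libraries an upstream first exon held more FPKM than the main one, which carried most of it elsewhere, and Ldha was not called. Its share of LDH FPKM was 72.4% to 95.7% without and 96.7% to 98.5% with LPS.

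Of the 5 pentose phosphate members tested, 1 was called. Taldo1, the transaldolase of the non-oxidative branch, fell in TLR4-WT from a mean of 474 ± 68.3 (SD, n = 3) to 259.5 ± 77.9 FPKM (-0.90 ± 0.23, adjusted p = 0.0045) and in TLR4-K730R by 0.94. Both calls were lost under median-of-ratios scaling and without single libraries, which were mock replicates 1 and 3 and LPS replicates 1 and 2 in TLR4-WT (-1.10 to -0.65), and mock and LPS replicates 1 and 3 in TLR4-K730R (-1.16 to -0.74). Pgd, the second NADPH-forming enzyme and the most abundant member in mock-treated TLR4-WT, was at 570.3, 559 and 574 FPKM in mock-treated and 350.0, 372 and 564 FPKM in LPS-treated TLR4-WT. It was at 630.4, 671 and 607 and then 594, 685 and 388 FPKM in TLR4-K730R and at 474, 499.9 and 449 and then 596, 512 and 540.1 FPKM in TLR4-K810R. It was not called in any genotype, and replicate 3 was again apart from the other LPS libraries in TLR4-WT and TLR4-K730R. G6pdx, the entry enzyme, was at 98.7, 99.6 and 102 and then 81.0, 84.2 and 91.5 FPKM in TLR4-WT, at 88.3, 81.3 and 89.8 and then 103, 94.4 and 88.7 FPKM in TLR4-K730R, and at 57.5, 93.7 and 24.9 and then 79.8, 90.2 and 91.8 FPKM in TLR4-K810R, and was not called. Rpia and Rpe, which interconvert the pentose phosphates, lay between 2.24 and 9.20 FPKM and were not called, though Rpe was called higher in all 3 genotypes under median-of-ratios scaling.

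At pyruvate entry 1 of the 2 kinases fell in all 3 genotypes, and 1 of the 3 member subunits of the complex fell in both mutants. Pdk1, a kinase that switches off the pyruvate dehydrogenase complex, was at 4.71, 5.62 and 4.36 FPKM in mock-treated TLR4-WT and at 1.33, 1.06 and 0.635 FPKM with LPS. In TLR4-K730R it went from 4.61, 3.94 and 4.72 to 1.47, 1.47 and 1.04 FPKM, and in TLR4-K810R from 5.03, 5.05 and 5.01 to 1.45, 1.41 and 1.48 FPKM. The groups lay apart, and the log2 difference was -1.56 ± 0.14 (adjusted p = 2.6e-07), -1.22 ± 0.14 and -1.30 ± 0.14. Pdk3, a kinase of the same family, was at 4.56, 4.52 and 3.58 and then 6.78, 5.65 and 3.65 FPKM in TLR4-WT, at 3.39, 3.61 and 2.72 and then 2.87, 2.33 and 4.97 FPKM in TLR4-K730R, and at 4.48, 4.07 and 3.74 and then 3.22, 3.88 and 3.02 FPKM in TLR4-K810R, with overlap and no call. Among the subunits of the complex, Pdha1 and Dlat were not called, and Pdhb fell by 0.54 in TLR4-K730R and by 0.43 in TLR4-K810R, neither of them under median-of-ratios scaling. The call in TLR4-K810R was also lost without any 1 library other than LPS replicate 3 (-0.50 to -0.39).

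Among the isocitrate dehydrogenases was the largest called fall of the set in TLR4-WT on the log2(FPKM + 1) scale. As a ratio of mean FPKM, Idh1 fell 5.27 times and Aldoc, from a low level, 5.35 times. Idh1, the NADP-dependent enzyme of the cytosol, was at 115, 129 and 108 FPKM in mock-treated TLR4-WT and at 20.6, 17.9 and 28.3 FPKM with LPS. Its levels were 136, 133 and 137 and then 31.1, 29.1 and 18.9 FPKM in TLR4-K730R, and 128, 134 and 153 and then 31.7, 39.4 and 35.4 FPKM in TLR4-K810R. No mock-treated library was thus below 108 FPKM and no LPS-treated one above 39.4 FPKM, a log2 difference of -2.37 ± 0.18 (adjusted p = 2.4e-08), -2.35 ± 0.18 and -1.93 ± 0.18. Idh2, its mitochondrial counterpart, was at 34.8, 27.5 and 31.9 FPKM and then at 9.34, 4.23 and 9.94 FPKM in TLR4-WT. It was at 35.4, 37.7 and 33.3 and then 3.95, 8.67 and 8.56 FPKM in TLR4-K730R, and at 41.0, 39.2 and 50.8 and then 15.6, 16.2 and 14.6 FPKM in TLR4-K810R. No groups overlapped within a genotype, and the differences were -1.94 ± 0.26, -2.24 ± 0.26 and -1.43 ± 0.26. Idh1 made up 67.0% to 88.7% of the summed FPKM of these 2 genes in every library.

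The promoters of Idh1 (chr1:65179093-65179392, minus strand) and Ldhb (chr6:142507908-142508207, minus strand), the members with the 2 largest called falls in TLR4-WT on the log2(FPKM + 1) scale, are shown in the same way for comparison.
Idh1: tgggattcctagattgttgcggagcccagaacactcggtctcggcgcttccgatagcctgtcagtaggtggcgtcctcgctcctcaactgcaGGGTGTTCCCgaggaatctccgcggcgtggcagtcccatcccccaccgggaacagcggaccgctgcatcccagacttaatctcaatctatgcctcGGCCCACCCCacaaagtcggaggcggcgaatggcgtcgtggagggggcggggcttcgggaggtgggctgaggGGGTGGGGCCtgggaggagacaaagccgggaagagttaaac
Ldhb: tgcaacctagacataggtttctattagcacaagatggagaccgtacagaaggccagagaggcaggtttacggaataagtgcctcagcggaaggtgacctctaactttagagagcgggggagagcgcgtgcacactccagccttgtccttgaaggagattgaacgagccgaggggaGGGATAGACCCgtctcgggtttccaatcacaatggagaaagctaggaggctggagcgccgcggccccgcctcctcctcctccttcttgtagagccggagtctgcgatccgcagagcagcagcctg
Neither holds ACGTG in this window. The NF-kB motif matches 3 times in Idh1 and 2 times, overlapping on both strands, in Ldhb.

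The NAD-dependent isocitrate dehydrogenase of the TCA cycle is built from 3 subunits. Idh3g was at 46.4, 36.7 and 52.8 FPKM and then at 19.4, 15.3 and 22.5 FPKM in TLR4-WT, at 70.0, 56.3 and 57.2 and then 22.7, 21.7 and 24.7 FPKM in TLR4-K730R, and at 66.7, 55.4 and 87.1 and then 42.3, 30.6 and 25.5 FPKM in TLR4-K810R. It fell without overlap by 1.21, 1.36 and 1.07 on the log2 scale, though the sum of its last exons alone gave 0.58 in TLR4-K810R. In each genotype 1 alternative kept the direction and lost the call. Idh3b fell in TLR4-WT (-0.98) and TLR4-K730R (-0.96), and Idh3a in TLR4-K730R (-0.70) and TLR4-K810R (-0.70). Both calls of Idh3a depended on a single library, mock replicate 1 in TLR4-K730R (-0.80 to -0.61 over the libraries left out) and mock replicate 2 in TLR4-K810R (-0.79 to -0.64). Both of them and the TLR4-K730R call of Idh3b were lost under median-of-ratios scaling. Aco1, the cytosolic aconitase that doubles as an iron regulatory protein, went from 21.8, 20.2 and 22.8 to 8.45, 7.31 and 12.2 FPKM in TLR4-WT, from 23.5, 23.1 and 18.2 to 9.49, 10.7 and 7.04 FPKM in TLR4-K730R, and from 20.01, 20.1 and 27 to 14.1, 14.01 and 14.4 FPKM in TLR4-K810R. The fall was called in TLR4-WT (-1.16) and TLR4-K730R (-1.18) and not in TLR4-K810R (-0.61, adjusted p = 0.012), where the groups did not overlap either. Cs, the citrate synthase, was called in TLR4-WT (-0.43, and -0.11 under median-of-ratios scaling, not called).

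Of the steps from oxoglutarate to succinate, the succinyl-CoA ligase had 2 subunits that fell in all 3 genotypes. Suclg1, its common subunit, was at 22.3, 22.7 and 21.2 FPKM and then at 12.2, 10.04 and 14.6 FPKM in TLR4-WT, at 22.8, 27.3 and 23.4 and then 12.5, 11.3 and 11.7 FPKM in TLR4-K730R, and at 22.5, 22.0 and 25.2 and then 14.8, 15.9 and 17.3 FPKM in TLR4-K810R. All LPS libraries were lower, by 0.81, 0.99 and 0.51 on the log2 scale. The call in TLR4-K810R was lost under median-of-ratios scaling and without mock replicate 3 or LPS replicate 1 or 2 (-0.57 to -0.46). Suclg2, the GTP-forming subunit, fell by 1.08, 1.15 and 0.94 from levels of 2.79 to 4.55 FPKM, and Sucla2, the ATP-forming one, was not called (-0.08, -0.21 and -0.20). Ogdh, which begins the oxoglutarate dehydrogenase reaction, fell in TLR4-WT (-0.83) and TLR4-K730R (-0.87) and not under median-of-ratios scaling. Dlst, its partner, had libraries from 6.5 to 44 FPKM without a call.

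Succinate dehydrogenase oxidises succinate to fumarate and is also complex II of the respiratory chain. Sdhb, its iron-sulfur subunit, was at 116, 114 and 112 FPKM and then at 65.1, 63.1 and 72.3 FPKM in TLR4-WT, at 109.5, 105 and 103 and then 64.5, 71.8 and 67.5 FPKM in TLR4-K730R, and at 103, 111 and 114 and then 84.1, 76.7 and 74.6 FPKM in TLR4-K810R. The libraries were tight and did not overlap, and the fall was 0.77 ± 0.09 (adjusted p = 2.7e-06), 0.63 ± 0.09 and 0.47 ± 0.09 on the log2 scale. In both mutants it was not called under median-of-ratios scaling. Sdhd fell by 0.38, 0.38 and 0.34, close to the median of all genes, and was not called in any genotype under median-of-ratios scaling, which gave 0.03 in TLR4-K730R. Its call in TLR4-K810R was lost without any 1 library other than mock replicate 2 (-0.35 to -0.33). Sdhc was called in TLR4-K810R alone (-0.91), where 1 mock library stood at 72.4 FPKM beside 27.2 and 33.3 FPKM, and without that library its difference was -0.49. The call was lost without any 1 LPS library (-0.99 to -0.84) and under median-of-ratios scaling. Sdha, listed at 1 end only, ranged from 20.6 to 100.2 FPKM without a call. Fh1, the fumarase, fell in all 3 genotypes (-1.08, -0.69 and -0.66), in the mutants not under median-of-ratios scaling. Those calls were also lost without mock replicate 2 or LPS replicate 3 in TLR4-K730R (-0.82 to -0.56) and without replicate 2 or 3 of either group in TLR4-K810R (-0.79 to -0.56).

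Malate dehydrogenase exists as a cytosolic and a mitochondrial enzyme, and the cytosolic one fell. Mdh1 went from 55.9, 54.0 and 45.5 to 13, 17.8 and 19.6 FPKM in TLR4-WT, from 51.8, 49.4 and 50.2 to 15.7, 20.5 and 19.8 FPKM in TLR4-K730R, and from 52.5, 56.3 and 56.1 to 25.5, 23.1 and 14.5 FPKM in TLR4-K810R. Every LPS library was below every mock library, with log2 differences of -1.58, -1.40 and -1.38. Its first exons are listed only in part, however, and their sum alone gave 0.06 in TLR4-K810R. In TLR4-WT and in TLR4-K730R 1 alternative each kept the direction and lost the call. Mdh2, the mitochondrial enzyme, was at 33.2 to 92.8 FPKM over the 18 libraries, more than Mdh1 on average, and was not called (-0.32, 0.01 and 0.04). In TLR4-K730R 1 mock library stood at 33.2 FPKM beside 86.5 and 86.5 FPKM. The LPS libraries there were at 58.3, 74.2 and 58.9 FPKM, so a fall in that genotype is not excluded.

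No member was called between the genotypes. With limma, 0 of 47 members passed for TLR4-K730R against TLR4-WT without LPS (0.268% of all genes) or with LPS (0% of all genes), and 0 for the difference between their LPS responses (0.0412%). For TLR4-K810R the same counts were 0 of 47 without LPS (1.58% of all genes), with LPS (0.134%) and for the difference between the responses (0.124%). At an unadjusted p below 0.05 there were 3, 4 and 3 members for TLR4-K730R and 6, 17 and 9 for TLR4-K810R, in the same order. That is 6.38%, 8.51% and 6.38% of members beside 7.7%, 7.69% and 7.02% of all genes for TLR4-K730R, and 12.8%, 36.2% and 19.1% beside 14.1%, 21.8% and 13.2% for TLR4-K810R, so that in 4 of the 6 comparisons the members lie near or below the share of all genes. These comparisons share the TLR4-WT libraries. A missing call does not show equal levels. For Hk2 with LPS the intervals were -0.19 to 0.18 in TLR4-K730R and -0.13 to 0.24 in TLR4-K810R.

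Without LPS, the nearest members in TLR4-K730R were Hk2 (0.30, adjusted p = 0.24) and Eno1 (0.79, adjusted p = 0.54). In TLR4-K810R they were G6pdx (-0.95, adjusted p = 0.10) and Idh3g (0.60, adjusted p = 0.14). G6pdx was called, at -1.38, only without replicate 2 of mock-treated TLR4-K810R, the library at 93.7 FPKM. Acod1 was lower in mock-treated TLR4-K810R libraries (27.9 to 32.1 FPKM) than in each TLR4-WT library (34.5 to 61.2 FPKM), a difference of -0.66 that did not pass (adjusted p = 0.30).

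With LPS, TLR4-K810R lay above TLR4-WT for 36 of 47 members, with a median log2 difference of 0.23 beside 0.11 over all genes. Under median-of-ratios scaling 28 members lay above, with a median of 0.08 beside -0.02 over all genes. In the same libraries the macrophage marker Cd68 was higher in TLR4-K810R (455 to 579 FPKM) than in TLR4-WT (387 to 402 FPKM) and Mertk lower (5.03 to 6.98 and 8.65 to 15.9 FPKM), while Lyz2, Csf1r and Adgre1 overlapped. The part of these markers in the differences was not tested. The genes nearest to a call were Gpi1 (0.91 ± 0.16, 95% interval 0.57 to 1.26, adjusted p = 0.017), Idh1 (0.67 ± 0.18, adjusted p = 0.057), Fh1 (0.61, adjusted p = 0.057), Idh2 (0.97 ± 0.26, adjusted p = 0.059) and Idh3g (0.74, adjusted p = 0.060). These 5 genes were picked as nearest to a call, so a separation of their libraries was likely beforehand and adds no support. In each of them the LPS-treated TLR4-K810R libraries lay above all 3 TLR4-WT libraries. Acod1 pointed the other way: its 887 to 907 FPKM in TLR4-K810R lay below the 988 to 2020 FPKM of TLR4-WT, a difference of -0.81 with a 95% interval of -1.41 to -0.20 (adjusted p = 0.13). Pfkfb3 was also lower, at -0.64 (adjusted p = 0.23), with overlap. The difference between the LPS responses was nearest to a call for Gpi1 (0.94, adjusted p = 0.089) and Pfkfb4 (0.70, adjusted p = 0.12), and for Acod1 it was -0.14 (adjusted p = 0.91).

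These results depend on replicate 3 of LPS-treated TLR4-WT, 1 of the libraries that stood apart. Without it, Gpi1 (1.04, adjusted p = 0.0039) and Idh1 (0.85, adjusted p = 0.0091) were called higher in LPS-treated TLR4-K810R. Without replicate 3 of LPS-treated TLR4-K730R as well, 8 members were called: Gpi1, Pfkfb4, Pgd, Aco1, Idh1 and Fh1 higher, and Acod1 (-1.14, adjusted p = 0.0011) and Pdk3 (-0.72) lower. The difference between the responses was then called for Gpi1 (1.06, adjusted p = 0.0090) and Pgd (0.86, adjusted p = 0.0032). In the same fit, TLR4-K730R against TLR4-WT with LPS gave 2 calls, Pgd higher (0.82) and Pdk3 lower (-1.004). Leaving both libraries out was decided after Acod1 was seen to differ within both groups, so these calls are descriptions. The share of all genes called in the fits without these libraries is not given here, so the counts cannot be set against it.

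**Figure D4:**
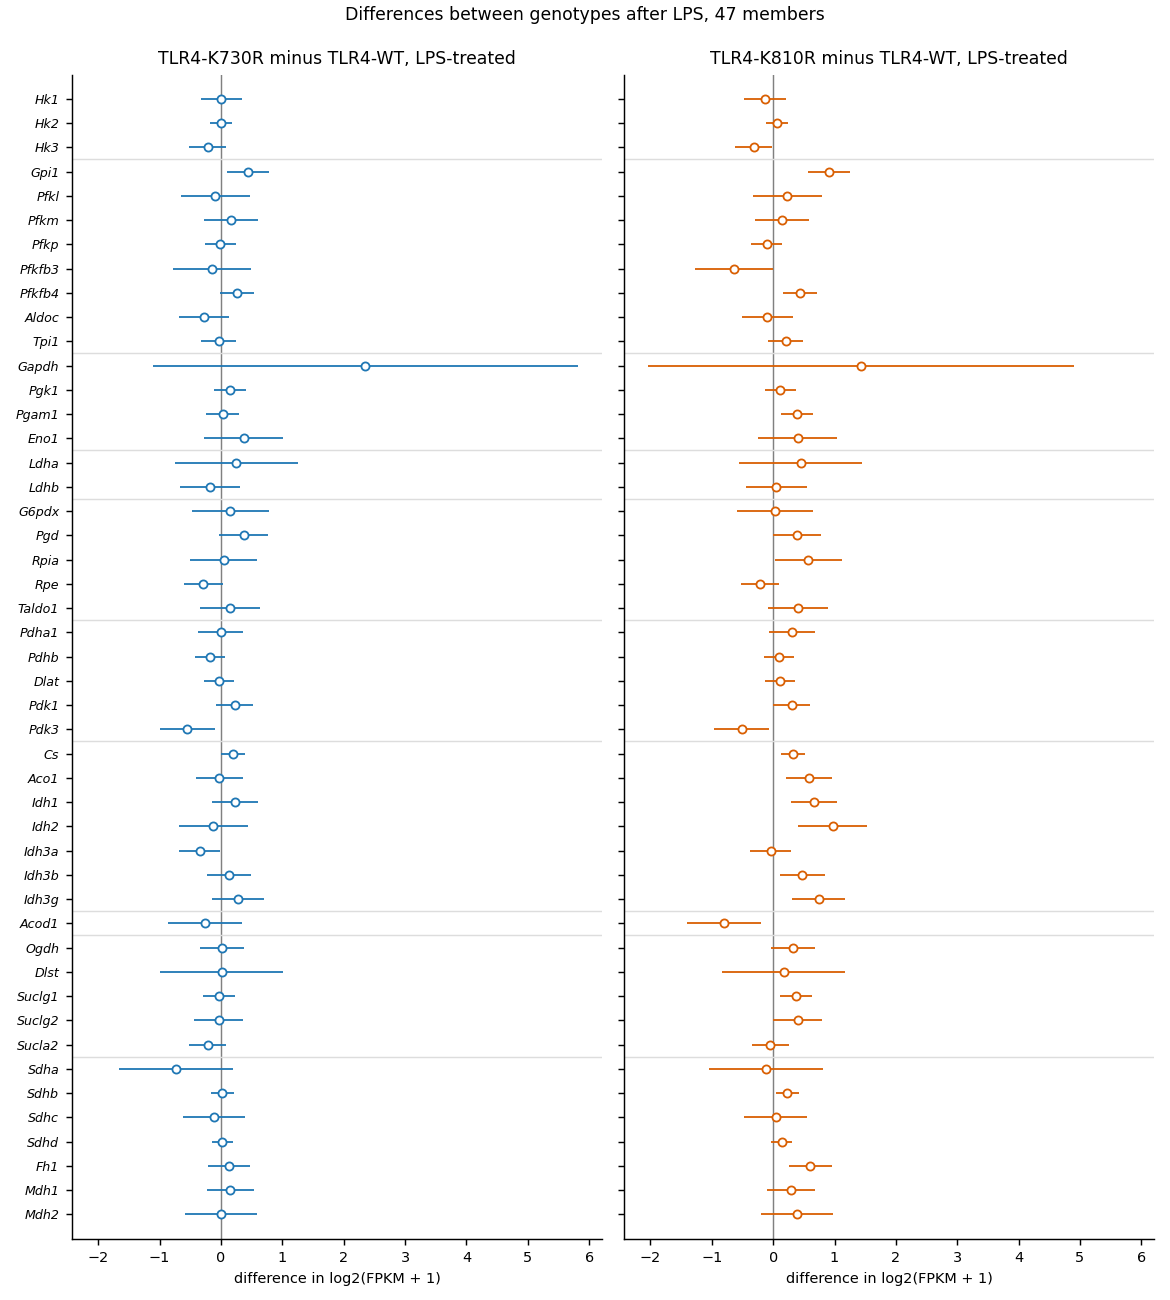
Difference in log2(FPKM + 1) between each mutant and TLR4-WT, both LPS-treated, for the 47 tested members in the order of the pathway, with 95% confidence intervals. No member was called. In the panel for TLR4-K810R 36 points lie to the right of 0, with Gpi1 at 0.91 and Idh2 at 0.97, and Acod1 lies to the left at -0.81.

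Gpi1 and Pfkfb4 each have 2 first exons with appreciable FPKM. The upstream first exon of Gpi1 (at 34230336 on chromosome 7) was at 56.8, 62.3 and 83.8 FPKM in LPS-treated TLR4-WT and at 78.9, 96.9 and 108 FPKM in LPS-treated TLR4-K810R, with overlap. An internal first exon (at 34207898) was at 0.215, 8.53 and 0.167 FPKM in LPS-treated TLR4-WT and at 59.1, 42.0 and 9.27 FPKM in LPS-treated TLR4-K810R. The higher Gpi1 total of TLR4-K810R thus came from both, and the internal one varied widely between its libraries. It was at 26.9, 24.7 and 9.35 FPKM in mock-treated TLR4-WT. Pfkfb4 in TLR4-WT went from 8.99, 9.21 and 10.6 FPKM to 5.53, 6.59 and 7.90 FPKM at its upstream first exon. At its internal first exon it went from 15.5, 14.8 and 16.3 FPKM to 2.55, 4.29 and 3.30 FPKM. The larger part of its fall lay in the internal exon, and neither exon was tested on its own.

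**Figure D5:**
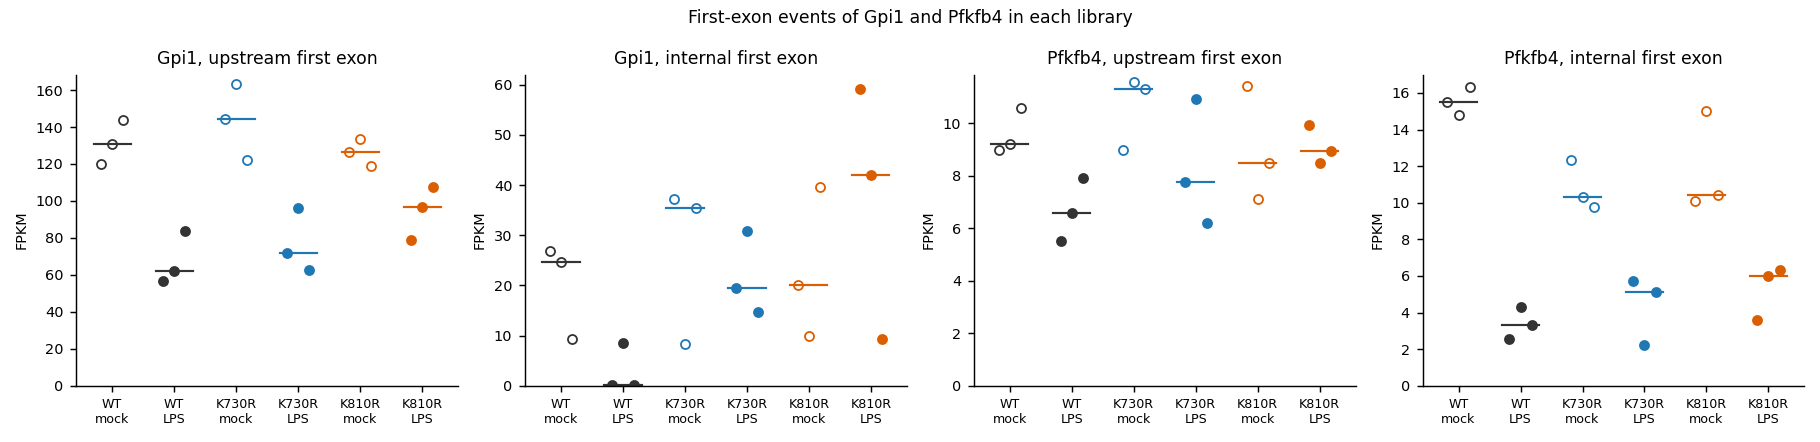
FPKM of the 2 main first-exon events of Gpi1 and Pfkfb4 in each library, with the 6 groups along the horizontal axis, open points for mock-treated and filled points for LPS-treated libraries and a line at the median of 3. The internal first exon of Gpi1 is near 0 in 2 of the 3 LPS-treated TLR4-WT libraries and reaches 59.1 FPKM in TLR4-K810R.

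A further 70 genes of the same metabolism, such as transporters, gluconeogenic and glycogen enzymes, shuttles and hypoxia factors, were looked at beside the members, and 56 of them were tested. They too were chosen with earlier results of these data known, so their shares are descriptions. In TLR4-WT, 5 rose (8.93%, beside 10.4% of all genes) and 24 fell (42.9%, beside 23.9%) with LPS. In TLR4-K730R 4 rose (7.14%, beside 9.32%) and 29 fell (51.8%, beside 26.5%), and in TLR4-K810R 2 rose (3.57%, beside 9.08%) and 26 fell (46.4%, beside 19.7%). Under median-of-ratios scaling 6 rose and 17 fell in TLR4-WT. For TLR4-K730R the counts were then 5 and 16, for TLR4-K810R 6 and 14. The falls are 30.4%, 28.6% and 25% of the 56 genes, in the order of the genotypes, beside the 14.2%, 13.5% and 11.7% of all genes. The rises are 10.7%, 8.93% and 10.7%, below the 15.5%, 15.5% and 12.4% of all genes. None was called between genotypes or for a difference between responses by limma. The largest rises in TLR4-WT were those of Slc2a6, a hexose transporter (2.16, from 15.5 to 16.5 FPKM up to 58.2 to 86.6 FPKM), Gpd2, the mitochondrial glycerol 3-phosphate dehydrogenase (1.66), and Slc16a1, a lactate and pyruvate carrier (1.65). Gpd2 and Slc2a6 also rose in both mutants, Gpd2 by 1.67 and 1.78 and Slc2a6 by 2.08 and 2.04. Epas1, the hypoxia-inducible factor 2 alpha, had the largest fall (-3.07), from 13.9 to 14.8 FPKM down to 0.608 to 0.945 FPKM, ahead of the carrier Slc16a7 (-2.35) and the pyruvate dehydrogenase kinase Pdk2 (-1.67).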

How the data were processed

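RNA-seq covered peritoneal macrophages of 3 TLR4 genotypes, mock-treated or LPS-treated, in 18 libraries grouped by their labels. The authors deposited FPKM values per transcript event, with a mouse Ensembl number, in 80071 to 90401 rows of 20 event types per library. The labels name a human build (hg18), but the coordinates match GRCm38. Aligner and counting program are not given in the sources used here. Events without expression have no row, so a value of 0 may be a gap in the listing, and without counts the depth and its counting error are unknown.

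First-exon and last-exon events were kept where strand and position matched the gene they name (GENCODE vM21), which dropped 4.61% to 9.19% of their FPKM per library, and the larger sum was the gene's value. A gene entered the test if 3 or more of 18 libraries reached 1 FPKM. One limma fit (version 3.58.1, R 4.3.3) of log2(FPKM + 1) held all 6 groups, used an intensity trend, and gave p-values adjusted by Benjamini-Hochberg across 9707 genes in each of 9 comparisons. The test was also tried on simulated data, but the outcome is not given here and no result rests on it. Gene values came from Python 3.11.15 with pandas 2.3.3.

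Members and lists were chosen with earlier results of these data known. Given in every library were Acod1, the 12 largest called changes in TLR4-WT and the most abundant isozyme of hexokinase, phosphofructokinase, PFKFB, aldolase, LDH, PDK, IDH, succinyl-CoA ligase and SDH. Hk2 and Pgk1, as the other rises, and Pgd, Gapdh and G6pdx were added after their values were seen. Of the further genes, the 3 largest rises and falls in TLR4-WT were named. The values of 1 gene of the lists are not reported here. Alternatives covered scaling, pseudocount, filters, first or last exons alone, variance trend, library weights, the groups in the fit, threshold, a replicate block and each library left out. Leaving out 2 libraries together was added after the data were seen. Promoters are RefSeq's (GRCm38.p6), and 46 members matched one.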

Additional observations from a re-analysis of the deposited data

How the results depend on the processing

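Depth is unknown for these FPKM values, partial listing of end exons limits members such as Gapdh, Ldha and Sdha, and 3 libraries per group leave changes within the spread undetected. Between LPS-treated and mock-treated cells, median-of-ratios scaling gave 22, 16 and 13 members called in TLR4-WT, TLR4-K730R and TLR4-K810R, beside 25, 27 and 21. A fit of the compared groups alone gave 21, 21 and 15, last exons alone (40 members tested) 20, 22 and 17, and library weights 29, 27 and 22. The share of all genes called is given here for the main fit and median-of-ratios scaling only. The counts of the other alternatives therefore have no background beside them and describe the members alone. Over the libraries left out in turn, 23 to 27 members were called for TLR4-WT, 24 to 28 for TLR4-K730R and 14 to 18 for TLR4-K810R. With LPS, TLR4-K810R against TLR4-WT had 0 called, while library weights gave 4 (Gpi1, Pfkfb4, Idh1 and Fh1, all higher), a threshold of 0.05 gave 1 (Gpi1), and leaving out a library gave 0 to 2. The same comparison without LPS gave 0 to 1. Leaving out replicate 3 of both LPS-treated TLR4-WT and TLR4-K730R, added after the data were seen, gave, with LPS, 8 members for TLR4-K810R and 2 for TLR4-K730R against TLR4-WT, and 2 for the difference between the responses of TLR4-K810R and TLR4-WT. The cause was not tested.

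Single members changed direction in 6 alternatives. Mdh1 in TLR4-K810R gave 0.059 with first exons alone, Idh3g in TLR4-K810R 0.58 with last exons alone, and Sdhd in TLR4-K730R 0.029 under median-of-ratios scaling. The Acod1 difference between the responses of TLR4-K810R and TLR4-WT, never called, gave 0.10 without mock TLR4-WT replicate 1, 0.0065 without LPS-treated replicate 1 and 0.040 without LPS-treated replicate 2 (-0.48 to 0.10 over all libraries left out). Of 1396 alternatives for 79 results on single members, 1285 kept direction and side of the threshold, 104 kept direction and lost the call, and 1 gained it (Acod1 in TLR4-K810R against TLR4-WT with LPS, without both libraries).

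Replicate numbers did not pair the libraries: the deviations of same-numbered libraries of 2 groups correlated with r of -0.32 to 0.10 over 45 pairs. With the replicate block, 26, 27 and 18 members were called with LPS in TLR4-WT, TLR4-K730R and TLR4-K810R, and 0 in each comparison between genotypes.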
